A study of Mus musculus with 38 samples.

Results

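A module of 43 mouse genes was followed through the RNA libraries of a study of Blimp1, the transcription factor encoded by Prdm1 on which plasma cell differentiation depends. The list of genes was chosen with earlier results of these data known. Its genes were taken by name, which the files print in capitals (ATF4, ASNS, CHAC1, PYCR1), and not by a cut on their measured values. They are 9 regulators and signalling genes of the ATF4 pathway, 7 enzymes of serine, glycine and one-carbon metabolism, 7 other enzymes of amino acid synthesis, and 20 cytosolic aminoacyl-tRNA synthetases, of which 13 are commonly listed as ATF4-responsive and 7 are not. In the files of the main experiment 42 of the 43 were found among 11441 uniquely named genes, and the RNA level of Aars, the alanyl-tRNA synthetase gene, was not analysed here. A test needed a level of at least 1 RPKM (reads scaled by transcript length and library size) in at least 2 libraries of a fit, and 40 members reached it in each of the 2 fits. The exceptions were Cbs, cystathionine beta-synthase, which lay between 0.0967 and 0.468 RPKM over the libraries of the main experiment, and Vldlr, a lipoprotein receptor gene, which lay between 0.304 and 0.832 RPKM there.

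The RNA libraries fell into 7 groups of 2, all from C57BL/6 mice carrying a GFP reporter at Blimp1, so that the controls also had a GFP allele. Plasma cells of Blimp1(GFP/+) mice were sorted directly ex vivo as CD28+CD138+GFP+Lin- cells. The other groups came from 4-day cultures with LPS, a bacterial lipopolysaccharide that activates B cells. Plasmablasts were Blimp1(GFP/+) Cd23(Cre/+) and sorted as CD138+GFP+. Blimp1-deficient pre-plasmablasts were Blimp1(GFP/fl) Cd23(Cre/+), in which Cre driven from Cd23, a gene of mature B cells, deletes the floxed allele, and were sorted as CD138–GFP+CD22hi. Control pre-plasmablasts were Blimp1(GFP/+) Cd23(Cre/+) and sorted as CD138–GFP+, without the CD22 gate, so genotype and gate cannot be told apart in that comparison. Activated B cells of the same genotype as these controls were sorted as CD138–GFP–. In a second experiment Blimp1(GFP/+) pre-plasmablasts, sorted as CD138–GFP+, received either GSK343, which inhibits EZH2, the enzyme that methylates histone H3 lysine 27, or DMSO as the vehicle. Nothing in the labels says whether the replicates came from different animals or cultures. The p-values therefore rest on the spread between these libraries, which may be technical.

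ATF4 is a transcription factor whose mRNA is translated preferentially when the initiation factor eIF2alpha is phosphorylated, as happens under endoplasmic reticulum stress through the kinase PERK and under amino acid shortage through the kinase GCN2. With C/EBP family partners it binds composite elements in genes for amino acid synthesis, amino acid import and tRNA charging. Aminoacyl-tRNA synthetases attach each amino acid to its tRNA. Plasma cells secrete antibody in large amounts, which draws on all of these functions.

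Promoter sequence was examined because many members moved together. RefSeq windows (build GRCm38.p6) reaching from 250 bases before to 50 bases after a gene's start were found for 34 of the 43 members. Aars, Cbs and Vldlr, whose RNA was not tested, are among the 34. The core of the C/EBP-ATF composite element, TGATGNAA on either strand, was present in 12 of these 34 (35.3%), and in 1219 of the 27025 genes of the table (4.51%). Its stricter form TGATGCAA, which the first pattern includes, was present in 9 members (26.5%) and in 279 genes of the table (1.03%). Since some members are known as ATF4 targets through this element, the share is not independent of how the list came about. By role, the core was found in 4 of 8 regulators, 3 of 6 genes of other amino acid synthesis and 5 of 8 ATF4-responsive synthetases, and in 0 of 7 serine, glycine and one-carbon genes and 0 of 5 other synthetases. These letters are a match and not a shown binding site. The 5 excerpts below were chosen among members with a match. Chac1, Pycr1 and Asns had changes among the largest. Tars is a synthetase, and Nupr1 a regulator that moved in opposite directions in the 2 experiments. Atf5 and Cebpb, which changed more than Asns in pre-plasmablasts over activated B cells, had no match in their windows, and neither had Atf4. Each excerpt is a part of 41 to 60 bases of a window, read on the gene's own strand, with the core or its reverse complement in capitals.
Chac1, chr2:119351023-119351082, plus strand: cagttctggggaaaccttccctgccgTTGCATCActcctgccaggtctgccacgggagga
Pycr1, chr11:120643818-120643877, minus strand: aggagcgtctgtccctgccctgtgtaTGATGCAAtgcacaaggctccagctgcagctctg
Asns, chr6:7693210-7693258, minus strand: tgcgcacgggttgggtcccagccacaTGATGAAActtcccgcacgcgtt
Nupr1, chr7:126625547-126625606, minus strand: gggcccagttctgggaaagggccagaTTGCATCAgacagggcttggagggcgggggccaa
Tars, chr15:11399659-11399699, minus strand: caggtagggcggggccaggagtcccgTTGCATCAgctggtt

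The libraries of the main experiment held GC-normalized RPKM values, with 9744 to 10077 genes at 1 RPKM or more in each. The files give no read totals. Low values of the second experiment lay on steps of 1 read, which gave depths relative to the first DMSO library of 1.008 and 0.832 for GSK343 and 0.848 for the second DMSO library. Prdm1 itself read 198.5 and 171.1 RPKM in Blimp1-deficient pre-plasmablasts, against 428.8 and 326.7 RPKM in control pre-plasmablasts and 7.45 and 10.7 RPKM in activated B cells. This value takes in transcripts of the GFP allele and of any part left after deletion. The 5 B cell markers summed to at least 1470.9 RPKM in each library of the main experiment. Of the contaminant markers, 2 of 5 myeloid genes and 1 of 4 erythroid genes were listed there, and no T cell marker. The myeloid sum was 13.2 and 18.8 RPKM in Blimp1-deficient and 0.521 and 0.783 RPKM in control pre-plasmablasts, and 12.3 and 12 RPKM in activated B cells. Hbb-b1, an adult beta-globin gene, read 10.8 and 10.1 RPKM in Blimp1-deficient, 0.338 and 0.651 RPKM in control pre-plasmablasts, and 13.3 and 6.55 RPKM in activated B cells. Genes that respond to cell handling (6 genes, among them Fos, Jun and Egr1) summed to 102.6 and 100.6 RPKM in Blimp1-deficient and 311.7 and 241.2 RPKM in control pre-plasmablasts, to 302.3 and 237.8 RPKM in plasmablasts, and to 286.2 and 118.3 RPKM in activated B cells. These 3 sums separate the Blimp1-deficient from the control pre-plasmablasts, and the myeloid and Hbb-b1 levels also separate the control pre-plasmablasts from activated B cells. Their part in the results was not tested.

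Pre-plasmablasts are the first Blimp1-expressing cells of these cultures, and their comparison with activated B cells asks how the module changed at that step. Of the 40 members tested, 26 were higher in pre-plasmablasts and 3 lower (limma, with Benjamini-Hochberg adjustment across the 10473 genes of the fit and a threshold of 0.05), where 20.2% of all genes were called higher and 28.0% lower. The median log2 fold change was 0.71 over the members and -0.12 over all genes. Of all calls 41.9% were higher, and 52.1% after median-of-ratios scaling, which moved the median of all genes to -0.01 and that of the members to 0.84. The map of all tested members by library shows the module low in activated B cells and in Blimp1-deficient pre-plasmablasts, and high in control pre-plasmablasts and plasmablasts. Fold changes are on the log2(RPKM + 1) scale, which understates those of weakly expressed genes, and are given with their SE from the fit (n = 2 libraries a group). Paired values are replicates 1 and 2.

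**Figure D1:**
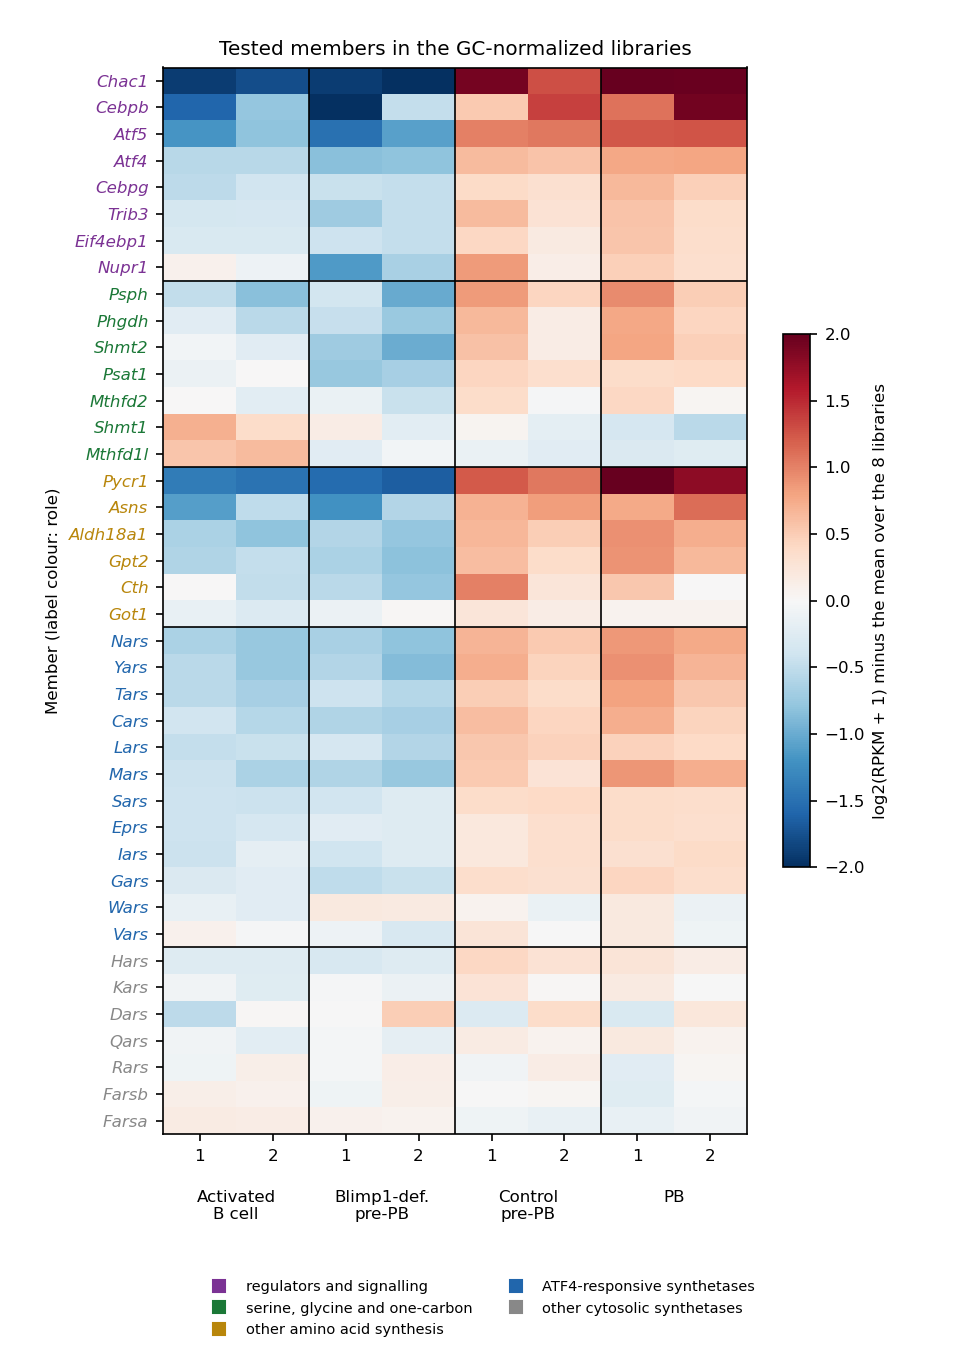
Each row is a tested member, coloured by role, and each column a library of the main experiment, in pairs by group (PB, plasmablast; pre-PB, pre-plasmablast). Colour is log2(RPKM + 1) minus the mean over the 8 libraries; regulators, amino acid synthesis and the ATF4-responsive synthetases are mostly blue in the first 4 columns and red in the last 4, whereas the 7 other synthetases at the foot stay pale.

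Among the regulators 7 of 8 rose and none fell. Atf4 mRNA stood at 442.6 and 423.0 RPKM in pre-plasmablasts, against 192.7 and 193.6 RPKM in activated B cells, a log2 fold change of 1.16 ± 0.08 (adjusted p = 7e-05). Chac1, a glutathione-degrading enzyme induced by ATF4, had the largest change of any member, with 128.6 and 83.1 RPKM in pre-plasmablasts and 8.25 and 9.1 RPKM in activated B cells (3.43 ± 0.25, adjusted p = 9.35e-05). Atf5, a transcription factor of the same family, read 278.8 and 286.2 RPKM in pre-plasmablasts and 60.0 and 78.4 RPKM in activated B cells (2.03 ± 0.17, adjusted p = 0.000158). For all 3 genes every pre-plasmablast library lay above every activated B cell library. With 2 libraries a group such a separation is common. Between plasmablasts and pre-plasmablasts, where little was called, 12 of 40 members lay wholly above and 5 wholly below. The share over all genes is not given. Cebpb, which encodes a partner of ATF4, read 88.2 and 159.0 RPKM in pre-plasmablasts and 19.7 and 35.2 RPKM in activated B cells. Between libraries of the same replicate number its log2 fold changes were 2.11 and 2.14. Its replicates differed widely, and its call (2.13 ± 0.60, adjusted p = 0.0253) was lost without the second pre-plasmablast library (adjusted p = 0.116) or without the first activated B cell library (adjusted p = 0.122). The other rises were in Cebpg, another partner of ATF4, Trib3, a pseudokinase that restrains ATF4, and Eif4ebp1, an inhibitor of the cap-binding factor eIF4E, with log2 fold changes of 0.80, 0.80 and 0.60. Nupr1, a stress-induced chromatin protein, read 17.5 and 10.3 RPKM in pre-plasmablasts and 9.97 and 8.58 RPKM in activated B cells and was not called (adjusted p = 0.16), except without the second pre-plasmablast library (0.0314).

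The serine, glycine and one-carbon enzymes divided. The 3 enzymes that make serine from a glycolytic intermediate all rose in pre-plasmablasts: Psph, the phosphatase of the last step, by 1.30 ± 0.27 on the log2 scale (adjusted p = 0.00833), Phgdh, the dehydrogenase of the first step, by 0.78 ± 0.22 (adjusted p = 0.0241), and Psat1, the aminotransferase between them, by 0.44 ± 0.09 (adjusted p = 0.00693). Psat1 was at 123.2 and 115.6 RPKM in pre-plasmablasts, against 83.8 and 92.1 RPKM in activated B cells. Mthfd1l, the mitochondrial enzyme that releases formate, fell, with 16.9 and 15.8 RPKM in pre-plasmablasts and 27.8 and 29.4 RPKM in activated B cells (-0.77 ± 0.10, adjusted p = 0.000933). Shmt1, the cytosolic enzyme that turns serine into glycine, fell to 21.2 and 17.6 RPKM in pre-plasmablasts, against 33.8 and 26.3 RPKM in activated B cells (-0.60 ± 0.18, adjusted p = 0.0342). Its mitochondrial counterpart Shmt2 was at 231.0 and 170.6 RPKM in pre-plasmablasts and 147.3 and 130.6 RPKM in activated B cells and was not called (0.51, adjusted p = 0.064). It was called when the library series entered as a replicate block (0.000196), after median-of-ratios scaling (0.036) and without the second pre-plasmablast library (0.0323). The second mitochondrial folate enzyme, Mthfd2, was called with the block (0.27, adjusted p = 0.312 without it and 0.00382 with it). The call of Phgdh was lost without the first pre-plasmablast library (adjusted p = 0.114) or the second activated B cell library (0.119), that of Psat1 without the first activated B cell library (0.0516), and that of Shmt1 without either pre-plasmablast library (0.0514 and 0.149) or the first activated B cell library (0.171), and after median-of-ratios scaling (0.0806).

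Of the other enzymes of amino acid synthesis 5 of 6 rose. Pycr1, the reductase of the last step of proline synthesis from glutamate, was at 24.4 and 21.6 RPKM in pre-plasmablasts, against 3.13 and 2.91 RPKM in activated B cells (2.58 ± 0.12, adjusted p = 2.15e-05), and Aldh18a1, which catalyses the first steps of that pathway, rose by 1.30 ± 0.12. Asns, asparagine synthetase, read 87.3 and 97.1 RPKM in pre-plasmablasts and 24.5 and 37.4 RPKM in activated B cells (1.57 ± 0.27, adjusted p = 0.00359). Gpt2, a mitochondrial alanine aminotransferase, rose by 1.02 ± 0.14, and Got1, the cytosolic aspartate aminotransferase, by 0.41 ± 0.09 (adjusted p = 0.0109). The call of Got1 was lost without the first pre-plasmablast library (adjusted p = 0.0623) or the second activated B cell library (0.0704). Cth, which makes cysteine from cystathionine, was at 34.4 and 19.7 RPKM in pre-plasmablasts and 16.6 and 11.5 RPKM in activated B cells. It missed the threshold (0.87, adjusted p = 0.0571) and passed it with the block (adjusted p = 0.000219), after scaling (0.0419) and without the second pre-plasmablast library (0.0221).

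Of the 12 ATF4-responsive ones tested 10 rose, by 0.59 to 1.29 on the log2 scale, led by Nars (asparagine), Yars (tyrosine), Tars (threonine) and Cars (cysteine). Nars was at 232.9 and 210.9 RPKM in pre-plasmablasts, against 93.9 and 85.7 RPKM in activated B cells (1.29 ± 0.10, adjusted p = 0.00013). Yars was at 91.4 and 74.6 RPKM in pre-plasmablasts and 37.3 and 31.8 RPKM in activated B cells (1.24 ± 0.16, adjusted p = 0.00103). The 2 that were not called were Vars (valine), at 347.9 and 290.1 RPKM in pre-plasmablasts and 308.4 and 285.4 RPKM in activated B cells (95% interval of the log2 fold change -0.26 to 0.46), and Wars (tryptophan; interval -0.14 to 0.47). Among the 7 other synthetases Hars (histidine) rose, by 0.61 ± 0.09, and Farsa, the alpha subunit for phenylalanine, fell by 0.27 ± 0.08. The call of Farsa was lost after median-of-ratios scaling (adjusted p = 0.171) and without any of the 4 libraries compared (adjusted p 0.069 to 0.116). Kars (lysine) and Qars (glutamine) were called higher after scaling (adjusted p = 0.035 and 0.0266). With the block 4 of these 7 were higher and 1 lower, the added calls being Kars, Qars and Dars (aspartate; 0.30, adjusted p = 0.00191). The summed level of the 18 cytosolic synthetases listed in every file was 1928.9 and 1822.1 RPKM in pre-plasmablasts and 1358.8 and 1328.9 RPKM in activated B cells.

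Synthetases of the mitochondria, which are encoded by separate nuclear genes and are not members, did not share this rise. Of 17 tested none rose and 6 fell in pre-plasmablasts, with a median log2 fold change of -0.35, and 5 fell after median-of-ratios scaling. The count of 6 lay near the share of all genes called lower, 28.0%. With 1 library left out, 2 to 7 fell. Among the falls were those of Wars2 (-0.75 ± 0.16), Aars2 (-0.63 ± 0.16) and Pars2 (-0.63 ± 0.14), which charge tryptophan, alanine and proline. The calls of Aars2 and Pars2 were lost without the second pre-plasmablast library (adjusted p = 0.0847 and 0.054) or the first activated B cell library (0.0827 and 0.0526), that of Aars2 also without the second activated B cell library (0.0612), and that of Wars2 without the first (0.0525). The plot of the 3 synthetase sets has the medians of both cytosolic sets above 0 and that of the mitochondrial set below it.

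**Figure D2:**
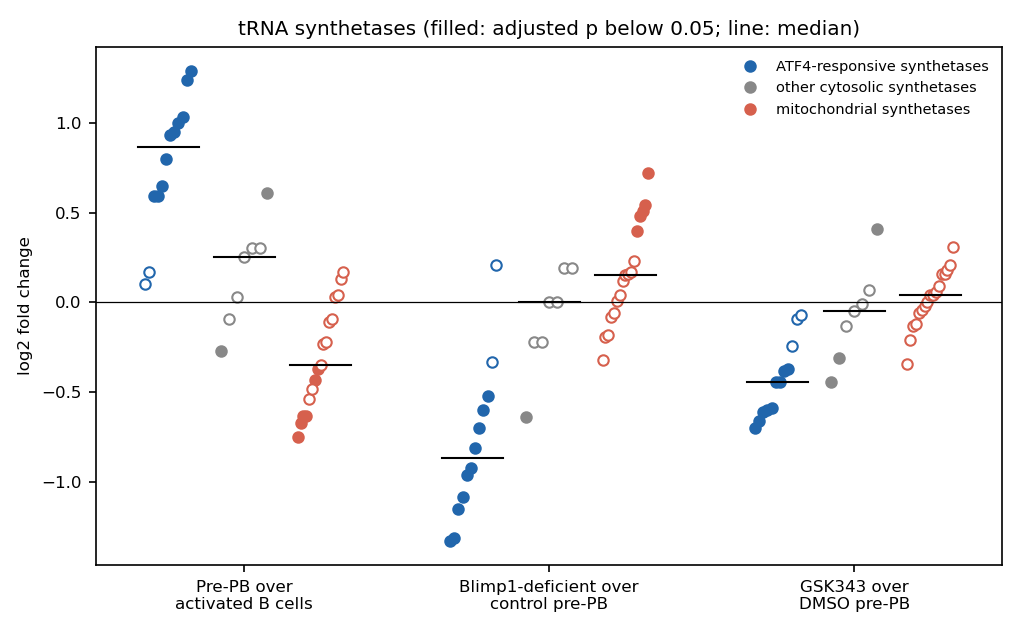
Each point is the log2 fold change of a tRNA synthetase gene in 1 of 3 comparisons, for the 12 ATF4-responsive and 7 other cytosolic members and 17 mitochondrial genes; filled points passed an adjusted p of 0.05 and lines are medians. In pre-plasmablasts over activated B cells the medians are 0.87, 0.25 and -0.35, and in Blimp1-deficient over control pre-plasmablasts they are -0.87, 0.00 and 0.15.

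The rest of the pathway was read from lists of genes outside the module. All 9 amino acid carriers listed as ATF4-linked rose in pre-plasmablasts. Slc7a3, a carrier of cationic amino acids, was at 51.5 and 61.2 RPKM in pre-plasmablasts and 3.87 and 6.38 RPKM in activated B cells (3.25 ± 0.25, adjusted p = 0.000114). Slc3a2 and Slc7a5, which together form a carrier of large neutral amino acids, rose by 2.18 ± 0.08 and 1.87 ± 0.09, and Slc6a9, a glycine carrier, by 1.83 ± 0.12. The smallest rise, that of Slc7a1 (0.26, adjusted p = 0.0438), was not called when any 1 of the 8 libraries was left out (adjusted p 0.0587 to 0.192). Of 11 genes of the eIF2alpha arm 7 rose and 1 fell. Eif2ak3, which encodes PERK, rose to 48.2 and 51.0 RPKM in pre-plasmablasts, against 17 and 19.4 RPKM in activated B cells (1.4 ± 0.11, adjusted p = 0.00013), while Eif2ak4, which encodes GCN2, fell to 5.4 and 6.42 RPKM, against 9.67 and 10.9 RPKM in activated B cells (-0.71 ± 0.15, adjusted p = 0.00933). The call of Eif2ak4 was lost without the first pre-plasmablast library (adjusted p = 0.0535) or the second activated B cell library (0.0569). Of 9 other folate enzymes tested 2 rose and 6 fell, and 4 fell after median-of-ratios scaling. Aldh1l2, a mitochondrial folate dehydrogenase, rose by 1.16 ± 0.10, and the falls were largest in Mtr, methionine synthase (-0.93 ± 0.14), Tyms, thymidylate synthase (-0.82 ± 0.11), and Gcsh, a protein of glycine cleavage (-0.79 ± 0.26; adjusted p = 0.0423, and 0.0673 after scaling). The call of Gcsh was lost without any library other than the second of the pre-plasmablasts and the first of the activated B cells, with adjusted p between 0.0595 and 0.202. Of 11 other enzymes of proline, aspartate, glutamate and branched-chain metabolism 2 rose, among them Bcat2 (0.92 ± 0.10), and 3 fell, the largest Glul, glutamine synthetase (-1.25 ± 0.11, adjusted p = 0.000199). Both counts lay near the shares of all genes, 20.2% higher and 28.0% lower. Xpot, which exports tRNA from the nucleus, rose by 0.80 ± 0.11, and 3 scaffold proteins of the synthetase complex were not called.

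Plasmablasts, which display CD138 and follow pre-plasmablasts in these cultures, differed from these in few members in the fit without the block. Against pre-plasmablasts 1 of the 40 members was called higher and none lower, where 0.716% of all genes were called higher and 1.62% lower (of all calls 30.6% were higher, and 42.6% after scaling). At an unadjusted p below 0.05, 3 were higher and none lower. The call was Pycr1, at 42.1 and 36.7 RPKM in plasmablasts and 24.4 and 21.6 RPKM in pre-plasmablasts (0.75 ± 0.12, adjusted p = 0.0303). It was lost when any 1 of the 8 libraries was left out, whichever group it came from, with adjusted p between 0.0638 and 0.216, and when only these groups entered the fit (adjusted p = 0.137). With the block, for which no share of all genes is given, 9 members were higher and 1, Shmt1, was lower (-0.37, adjusted p = 0.00857). Those that gained a call were Mars (0.41), Aldh18a1 (0.24), Nars (0.22), Tars (0.25), Yars (0.21), Chac1 (0.66), Shmt2 (0.26) and Atf4 (0.18), with adjusted p between 0.00241 and 0.0411. Chac1 was at 198.8 and 135.4 RPKM in plasmablasts and 128.6 and 83.1 RPKM in pre-plasmablasts, so the groups did not overlap, but each replicate pair was far apart. Between libraries of the same replicate number its log2 fold changes were 0.62 and 0.7. Slc3a2 was the carrier called (593.8 and 543.6 RPKM in plasmablasts, against 327.8 and 312.4 RPKM in pre-plasmablasts), and 6 of 9 carriers were higher with the block. Slc3a2 lost its call without the first pre-plasmablast library (log2 fold change 0.86, adjusted p = 0.0747) or the second (0.79, 0.0684), and without the first plasmablast library (adjusted p = 0.0775).

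Against activated B cells, 27 members were higher in plasmablasts and 3 lower, where 21.3% of all genes were called higher and 33.9% lower (of all calls 38.6% were higher, and 51.5% after scaling). This comparison shares its activated B cell libraries with that of pre-plasmablasts against activated B cells. It shares its plasmablast libraries with that of plasmablasts against pre-plasmablasts. Chac1 was 4.09 ± 0.25 higher on the log2 scale, Pycr1 3.33 ± 0.12, Atf5 2.24 ± 0.17 and Atf4 1.34 ± 0.08. Shmt1 had its lowest level of the main experiment in plasmablasts, 15.9 and 13.6 RPKM, against 33.8 and 26.3 RPKM in activated B cells (-0.97 ± 0.18, adjusted p = 0.00428). Mthfd1l (-0.85) and Farsa (-0.27) were the other members that fell. The calls of Got1, Shmt2 and Farsa were each lost without 1 library or another (adjusted p up to 0.19, 0.0742 and 0.131). The call of Got1 was lost without either plasmablast, either pre-plasmablast or either activated B cell library, that of Shmt2 without the first plasmablast or the second activated B cell library, and that of Farsa without either plasmablast or either activated B cell library and after scaling (0.497).

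The comparison of Blimp1-deficient with control pre-plasmablasts asks what becomes of the module without Blimp1. None of the 40 members was higher and 28 were lower in Blimp1-deficient cells, where 24.4% of all genes were called higher and 16.1% lower. At an unadjusted p below 0.05, 1 was higher and 29 lower. The median log2 fold change was -0.94 over the members and 0.12 over all genes, and -1.06 and 0.01 after median-of-ratios scaling. Of all calls 60.3% were higher, and 48.0% after scaling. With the block 33 members were lower, and 3 were higher by little: Wars (0.21), Dars (0.19) and Farsa (0.19). No share of all genes is given for that fit, so a general gain in calls and a change in the members cannot be told apart.

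All 8 regulators tested fell. Atf4 was at 159.5 and 162.3 RPKM in Blimp1-deficient and 442.6 and 423.0 RPKM in control pre-plasmablasts (-1.42 ± 0.08, adjusted p = 6.56e-05). Chac1 was at 8.25 and 6.91 RPKM in Blimp1-deficient and 128.6 and 83.1 RPKM in control cells (-3.61 ± 0.25, adjusted p = 0.000132), and Atf5 at 48.3 and 64.1 RPKM in Blimp1-deficient and 278.8 and 286.2 RPKM in control cells (-2.32 ± 0.17, adjusted p = 0.000152). In none of the 3 did the groups come near to overlapping. Nupr1, not called between pre-plasmablasts and activated B cells, was at 3.68 and 5.53 RPKM in Blimp1-deficient and 17.5 and 10.3 RPKM in control cells (-1.39 ± 0.26, adjusted p = 0.00638). Cebpb was at 13.8 and 43.7 RPKM in Blimp1-deficient and 88.2 and 159.0 RPKM in control cells (-2.21 ± 0.60, adjusted p = 0.026). Between libraries of the same replicate number its log2 fold changes were -2.59 and -1.84. Its call was lost without the second control library (adjusted p = 0.118) or the first Blimp1-deficient one (0.111). Trib3, Cebpg and Eif4ebp1 fell by 1.05, 0.81 and 0.75 on the log2 scale.

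Among the enzymes, Pycr1 was at 2.73 and 2.47 RPKM in Blimp1-deficient and 24.4 and 21.6 RPKM in control pre-plasmablasts (-2.73 ± 0.12, adjusted p = 4.03e-05), and Asns at 22.5 and 35.6 RPKM in Blimp1-deficient and 87.3 and 97.1 RPKM in control cells (-1.67 ± 0.27, adjusted p = 0.00365). Cth (-1.29), Aldh18a1 (-1.26) and Gpt2 (-1.21) also fell, and Got1 was not called (-0.25, adjusted p = 0.0761), except with the block (0.0164) and after scaling (0.0255). Of the serine and one-carbon enzymes 4 of 7 fell: Psph (-1.33), Shmt2 (-1.22), Psat1 (-1.09) and Phgdh (-0.99). Psat1 was at 53.8 and 57.1 RPKM in Blimp1-deficient cells, against 123.2 and 115.6 RPKM in control cells. Mthfd1l and Shmt1 did not pass the test, with 95% intervals of -0.19 to 0.28 and -0.41 to 0.48. The call of Cth was lost without the first control library (adjusted p = 0.0741) or either Blimp1-deficient library (0.0544 and 0.0854), that of Phgdh without the first control library (0.0552) or the second Blimp1-deficient one (0.068), and that of Psph without the first control library (0.0534).

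**Figure D3:**
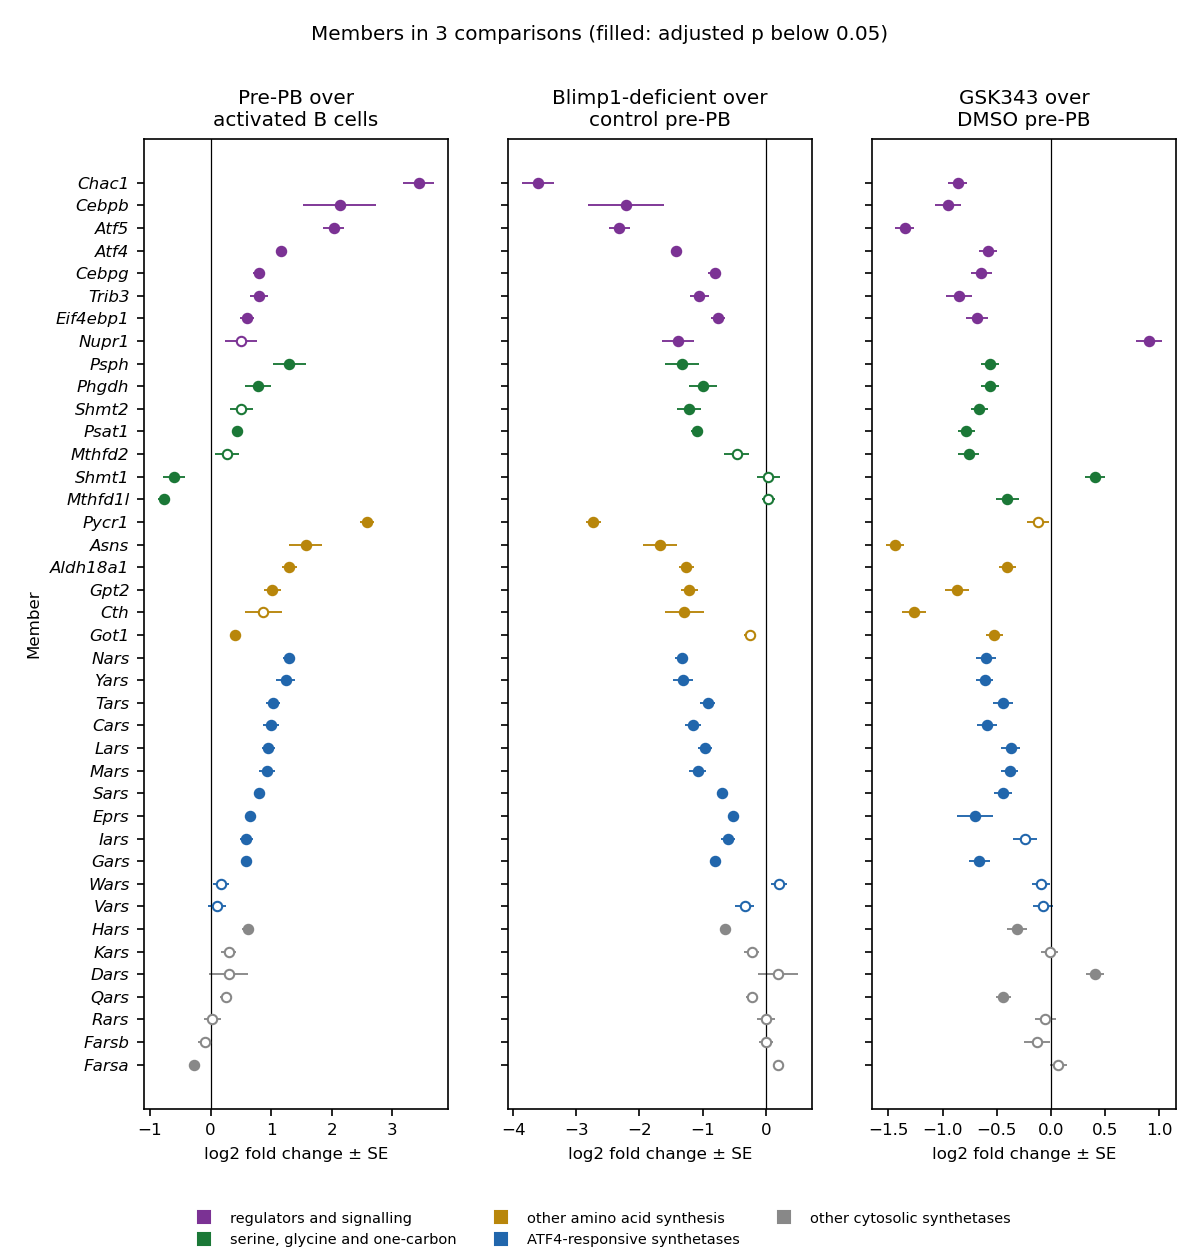
Log2 fold changes of the 40 tested members, ordered by role, in pre-plasmablasts over activated B cells, Blimp1-deficient over control pre-plasmablasts, and GSK343 over DMSO pre-plasmablasts; points are estimates, bars SE, and filled points passed an adjusted p of 0.05. The horizontal scales differ between panels; Chac1 runs from 3.43 in the first to -3.61 in the second, and Pycr1 lies at -0.12 in the third.

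Of the ATF4-responsive synthetases 10 of 12 fell, by 0.52 to 1.33 on the log2 scale, and Vars (-0.33, adjusted p = 0.124, and 0.00145 with the block) and Wars (0.21, adjusted p = 0.232) did not pass. Nars was at 92.4 and 83.4 RPKM in Blimp1-deficient and 232.9 and 210.9 RPKM in control pre-plasmablasts (-1.33 ± 0.10, adjusted p = 0.000191). Hars was the 1 of 7 other synthetases that fell (-0.64 ± 0.09, adjusted p = 0.00169), and Qars was also called lower after scaling (0.0442). The summed level of 18 cytosolic synthetases was 1349.2 and 1328.4 RPKM in Blimp1-deficient cells, against 1928.9 and 1822.1 RPKM in control cells. Of the 17 mitochondrial synthetases 5 rose and none fell, among them Wars2 (0.72 ± 0.16), Pars2 (0.54 ± 0.14) and Iars2 (0.48 ± 0.10). This count lay near the 24.4% of all genes called higher. After median-of-ratios scaling 4 rose and 1 fell, and with 1 library left out 1 to 4 rose. Wars2 and Pars2 were not called without the second control library (adjusted p = 0.0603 and 0.103), Wars2 without the first Blimp1-deficient library (0.0731), Pars2 and Iars2 without the second (0.101 and 0.0571), and Iars2 without the first control library (0.062).

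All 9 amino acid carriers fell in Blimp1-deficient cells, with a median of -1.51, led by Slc7a3 (5.05 and 7.29 RPKM in Blimp1-deficient and 51.5 and 61.2 RPKM in control cells, -3.01 ± 0.25), Slc7a5 (-2.13 ± 0.09), Slc3a2 (-2.06 ± 0.08) and Slc6a9 (-1.78 ± 0.12). The call of Slc7a1 was lost without the first control library (adjusted p = 0.0722) or either Blimp1-deficient library (0.0517 and 0.0615). Of the eIF2alpha arm 4 of 11 fell: Ppp1r15a and Ppp1r15b, which direct the dephosphorylation of eIF2alpha (-1.18 and -0.65), Ddit3, a transcription factor induced by ATF4 (-0.78), and Eif2ak3 (-0.61 ± 0.11, adjusted p = 0.00573). Ppp1r15a lost its call without the first control library (adjusted p = 0.0743) or either Blimp1-deficient library (0.0675 and 0.0636). Ddit4, an inhibitor of mTORC1, was the gene of this list that rose, at 235.6 and 255.5 RPKM in Blimp1-deficient and 181.0 and 171.8 RPKM in control cells. Its call (0.47, adjusted p = 0.0311) was lost after scaling (0.0759) and without either plasmablast, either control or either Blimp1-deficient library (adjusted p up to 0.134). Of 9 other folate enzymes 4 rose and 2 fell, and 2 rose and 2 fell after scaling. With 1 library left out 1 to 3 rose and 1 to 2 fell. Aldh1l2 fell by 1.31 ± 0.10, and Mthfd1, the cytosolic trifunctional folate enzyme, rose by 0.66 ± 0.11. Of the other amino acid enzymes 3 rose and 2 fell, with Glul higher (0.99 ± 0.11). These counts lay near the shares of all genes, 24.4% higher and 16.1% lower. Beside these results stand the higher B cell markers of the Blimp1-deficient cells (sums of 3693.1 and 3962.5 RPKM, against 2271.0 and 2421.8 RPKM in control cells) and their lower plasma cell markers (421.3 and 530.6 RPKM, against 3537.8 and 5463.7 RPKM in control cells), whose part in the results was not tested. In sorted bulk cells, fewer cells of a type and less RNA per cell cannot be told apart.

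Set against activated B cells, Blimp1-deficient pre-plasmablasts had 3 members lower and none higher, where 10.4% of all genes were called higher and 7.6% lower. The libraries of both groups also entered earlier comparisons. At an unadjusted p below 0.05, 1 member was higher and 7 lower. With the block, for which no share of all genes is given, 2 were higher and 11 lower. The median over the members was -0.09, and 0.00 over all genes. The 3 were enzymes of serine and one-carbon metabolism: Mthfd1l, at 15.9 and 17.9 RPKM in Blimp1-deficient pre-plasmablasts and 27.8 and 29.4 RPKM in activated B cells (-0.73 ± 0.10, adjusted p = 0.0042), Psat1, at 53.8 and 57.1 RPKM in Blimp1-deficient cells and 83.8 and 92.1 RPKM in activated B cells (-0.65 ± 0.09, adjusted p = 0.00432), and Shmt2, at 93.9 and 76.3 RPKM in Blimp1-deficient cells and 147.3 and 130.6 RPKM in activated B cells (-0.71 ± 0.19, adjusted p = 0.0482). The call of Shmt2 was lost after scaling (adjusted p = 0.0545) and without either plasmablast library (0.0593 and 0.0591), either Blimp1-deficient library (0.0845 and 0.222) or either activated B cell library (0.214 and 0.118). Atf4 was at 159.5 and 162.3 RPKM in Blimp1-deficient cells and 192.7 and 193.6 RPKM in activated B cells (-0.26 ± 0.08, adjusted p = 0.0668, and 0.00403 with the block). Among members that rose in control pre-plasmablasts, 6 are given with the 95% interval of their log2 fold change: -0.78 to 0.43 for Chac1, -0.44 to 0.12 for Pycr1, -1.52 to 1.35 for Cebpb, -0.70 to 0.11 for Atf5, -0.75 to 0.56 for Asns, and -0.28 to 0.22 for Nars. Each of the 6 included 0. Nupr1 was at 3.68 and 5.53 RPKM in Blimp1-deficient cells and 9.97 and 8.58 RPKM in activated B cells and missed the threshold (-0.89 ± 0.26, adjusted p = 0.0621, and 0.0144 with the block). It passed without either control pre-plasmablast library (0.0307 and 0.0305). In the eIF2alpha arm 4 genes were higher: Ddit4 (0.94 ± 0.13), Eif2ak3 (0.78 ± 0.11, adjusted p = 0.00527), Atf3, a stress-induced repressor (0.76 ± 0.17), and Sesn2, a leucine sensor (0.51 ± 0.14, adjusted p = 0.0477). Atf3 lost its call without either Blimp1-deficient library (adjusted p = 0.0927 and 0.117) or the second activated B cell library (0.0996). Sesn2 lost its call after scaling (0.0556) and without either plasmablast, either Blimp1-deficient or either activated B cell library (0.0569 to 0.193). Of 9 carriers none was higher and 1, Slc38a2, was lower (-0.65 ± 0.10, adjusted p = 0.00602). No mitochondrial synthetase was called, at an unadjusted p below 0.05 with 1 higher and 3 lower.

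**Figure D4:**
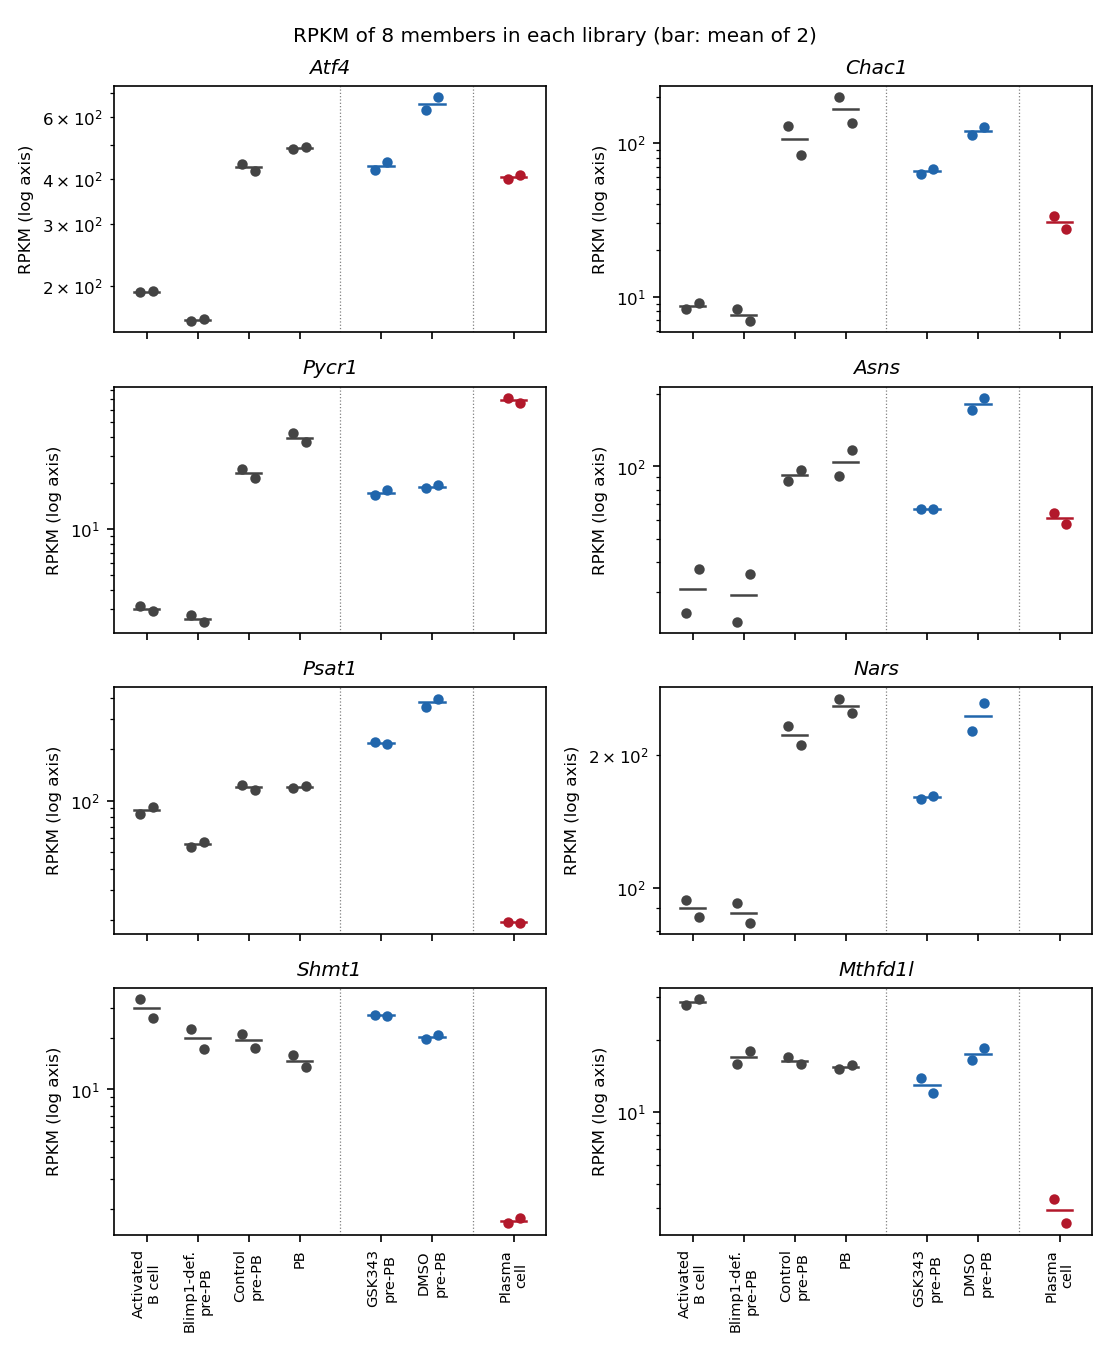
RPKM on a log axis for 8 members in every library, with bars at the mean of 2. Dotted lines part the main experiment, the GSK343 experiment and the plasma cells, whose values were normalized apart (PB, plasmablast; pre-PB, pre-plasmablast). Nars has no plasma cell value. Atf4, Chac1, Pycr1, Asns and Nars are low in activated B cells and Blimp1-deficient pre-plasmablasts and high in control pre-plasmablasts, and Shmt1 and Mthfd1l are, within the main experiment, highest in activated B cells.

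Most of the module was lower in pre-plasmablasts given GSK343. Of the 40 members tested 29 were lower and 3 higher than with DMSO, where 5.86% of the 9479 genes tested were called lower and 12.7% higher. The median log2 fold change was -0.54 over the members, and 0.02 over all genes. Without 1 library 22 to 31 members were lower and 1 to 3 higher, and the number of all genes called, 1763, was 747 at its lowest, without a GSK343 library. The labels give no pairing of these libraries.

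Among the regulators 7 of 8 fell and Nupr1 rose. Atf5 was at 55.8 and 55.1 RPKM with GSK343 and 130.4 and 156.4 RPKM with DMSO (-1.35 ± 0.09, adjusted p = 6.71e-06). Chac1 was at 63.2 and 67.8 RPKM with GSK343 and 112.5 and 128.0 RPKM with DMSO (-0.86 ± 0.09, adjusted p = 8.5e-05), and Atf4 at 424.0 and 447.6 RPKM with GSK343 and 624.8 and 679.9 RPKM with DMSO (-0.58 ± 0.08, adjusted p = 0.000702). Cebpb fell by 0.95 ± 0.12, at 11.6 and 9.02 RPKM with GSK343 and 20.3 and 21.2 RPKM with DMSO. Nupr1 ran the other way, at 7.39 and 7.49 RPKM with GSK343 and 3.66 and 3.31 RPKM with DMSO (0.91 ± 0.12, adjusted p = 0.000484). In all 5 genes the groups did not overlap. With 2 libraries a group such a separation is common.

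Asns had the largest fall, to 66.3 and 66.6 RPKM with GSK343, against 171.2 and 193.1 RPKM with DMSO (-1.44 ± 0.08, adjusted p = 2.19e-06). Cth fell to 11.3 and 10.8 RPKM with GSK343, against 25.7 and 30.1 RPKM with DMSO (-1.26 ± 0.11, adjusted p = 2.57e-05), and Gpt2 by 0.87 ± 0.11. Pycr1 was at 16.6 and 17.8 RPKM with GSK343 and 18.4 and 19.2 RPKM with DMSO and was not called (-0.12, 95% interval -0.33 to 0.10). Of the serine and one-carbon enzymes 6 of 7 fell, Psat1 the most, to 221.6 and 215.5 RPKM with GSK343, against 355.2 and 395.3 RPKM with DMSO (-0.78 ± 0.08, adjusted p = 0.000105), and Mthfd2 next (-0.76 ± 0.10). Shmt1 rose, at 27.4 and 27 RPKM with GSK343 and 19.7 and 20.8 RPKM with DMSO (0.41 ± 0.09, adjusted p = 0.00991). Its call was lost without the first (adjusted p = 0.0822) or second (0.0738) GSK343 library. The call of Mthfd1l (-0.40, adjusted p = 0.028) was lost without either GSK343 library (0.0528 and 0.213) or the second DMSO library (0.0957), and with no filter on low values (0.0819).

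Of the 12 ATF4-responsive synthetases 9 fell, by 0.37 to 0.70 on the log2 scale, and Iars, Vars and Wars were not called. Gars (glycine) was at 118.3 and 110.6 RPKM with GSK343 and 161.2 and 202.8 RPKM with DMSO (-0.66 ± 0.10, adjusted p = 0.00142), and Nars at 159.0 and 161.5 RPKM with GSK343 and 226.8 and 261.8 RPKM with DMSO (-0.60 ± 0.09, adjusted p = 0.000722). Eprs, the joint synthetase for glutamate and proline, had the largest fall (-0.70 ± 0.17, adjusted p = 0.0178), which was not called without the second GSK343 library (0.17) or without the filter (0.112). Of the 7 others Qars (-0.44) and Hars (-0.31) fell and Dars (aspartate) rose, at 59.9 and 59.7 RPKM with GSK343 and 43.7 and 46.1 RPKM with DMSO (0.41 ± 0.08, adjusted p = 0.00548, and 0.0595 and 0.0579 without the first or second GSK343 library). Calls were also lost without the second GSK343 library for Aldh18a1 (0.0988), Lars (0.186) and Tars (0.0647), without either GSK343 library for Mars (0.0562 and 0.0856), and without either GSK343 library or the second DMSO library for Hars (0.178, 0.177 and 0.195). Iars and Farsb gained a call without the first DMSO library (0.0178 and 0.0279). None of the 17 mitochondrial synthetases was called; at an unadjusted p below 0.05, 1 was higher and 2 were lower.

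Outside the module, 6 of 8 carriers tested fell with GSK343, led by Slc7a3 (38.8 and 44.8 RPKM with GSK343 and 88.9 and 98.6 RPKM with DMSO, -1.15 ± 0.09), Slc3a2 (-0.77 ± 0.08), Slc7a5 (-0.77 ± 0.08) and Slc6a9 (-0.49 ± 0.12), and with 1 library left out 3 to 5 fell. The call of Slc6a9 (adjusted p = 0.0186) was lost without either GSK343 library (0.0682 and 0.11) or the second DMSO library (0.0922), and without the filter (0.0694). Of the eIF2alpha arm 3 of 11 fell: Ddit4 (-0.56 ± 0.09), Sesn2 (-0.41 ± 0.09) and Ppp1r15a (-0.39 ± 0.10). The calls of Sesn2 and Ppp1r15a were lost without the first (adjusted p = 0.0553 and 0.103) or the second (0.104 and 0.102) GSK343 library, and that of Ppp1r15a also without the second DMSO library (0.0673). Eif2ak3 was not called (log2 fold change -0.07, adjusted p = 0.655). Glul rose by 0.66 ± 0.09. Cell handling genes summed to 117.5 and 120.3 RPKM with GSK343 and 123.9 and 111.8 RPKM with DMSO, so this measure did not separate the groups, while Cd14, a myeloid marker, was at 2.08 and 1.6 RPKM with GSK343 and 0.308 and 0.423 RPKM with DMSO (1.05 ± 0.14), whose part in the results was not tested.

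The Blimp1 and GSK343 contrasts share no library. Of the 28 members lower in Blimp1-deficient cells 25 (89.3%) were also lower with GSK343, and these are 86.2% of the 29 lower with GSK343. Over the 9285 genes tested in both fits, 241 were lower in both, 15.5% of those lower in Blimp1-deficient cells and 44.2% of those lower with GSK343. With 28 and 29 of the 40 members lower, a large overlap would arise even if the calls were unrelated. Of all genes only 1555 and 545 were lower, so the percentages of members and of all genes are not directly comparable. The 3 members lower in Blimp1-deficient cells and not with GSK343 were Pycr1, Iars and Nupr1, and the 4 lower with GSK343 and not called in Blimp1-deficient cells were Got1, Mthfd1l, Mthfd2 and Qars. With the block Got1, Mthfd2 and Qars were also lower in Blimp1-deficient cells (adjusted p = 0.0164, 0.000254 and 0.00429), and Got1 and Qars after scaling (0.0255 and 0.0442). Of the 10 tested members with the composite core in their window, 9 were higher in pre-plasmablasts than in activated B cells, 9 were lower in Blimp1-deficient than in control cells, and 7 were lower and 1 higher with GSK343. Of the 21 with a window and no core, 12 were higher and 3 lower in pre-plasmablasts, 13 were lower in Blimp1-deficient cells, and 16 were lower and 2 higher with GSK343.

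Plasma cells were sorted ex vivo and their values were made separately, so levels are given without a test, as RPKM and as the percentile of a gene within its library among the 11165 genes shared by all 14 files. Of 41 members with a plasma cell value, 8 stood more than 10 percentile points below both plasmablast and both DMSO libraries in both plasma cell libraries, and 0 stood above. Over all genes 7.89% stood below and 7.58% above. A gene within 10 points of the top in any of those plasmablast or DMSO libraries could not stand above by this rule. Many members, Atf4 among them, were so placed, so the 0 cannot be read against the 7.58%. Likewise a gene within 10 points of the bottom in any of those libraries could not stand below. Many members ranked high and had room to fall, so the 8 cannot be read directly against the 7.89% either. Atf4 was near the top, at percentiles 99.0 and 99.1 in plasma cells and 99.1 and 99.1 in plasmablasts (400.6 and 410.8 RPKM in plasma cells). Pycr1 was at 71.5 and 66.5 RPKM in plasma cells, percentiles 91.2 and 90.3, against 83.2 and 80.7 in plasmablasts, and Aldh18a1 was at percentiles 95.2 and 95 in plasma cells and 93.2 and 92.2 in plasmablasts.

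The members that stood lower included the serine and one-carbon enzymes Psat1, Psph, Shmt1 and Mthfd1l. Psat1 was at 19.5 and 19.3 RPKM in plasma cells, percentiles 67.4 and 66.8, against 94.6 and 94.8 in plasmablasts. Shmt1 was at 1.64 and 1.76 RPKM in plasma cells, percentiles 19.7 and 20.9, against 61.4 and 57.2 in plasmablasts. Phgdh did not stand apart, at percentiles 86.1 and 84.7 in plasma cells and 87.5 and 84.3 in plasmablasts. Cth had the widest gap, at 0.282 and 0.489 RPKM in plasma cells, percentiles 7.51 and 10.4, against 72.0 and 62.5 in plasmablasts. Trib3 was at percentiles 41.3 and 33.5 in plasma cells, against 81.5 and 78.6 in plasmablasts, and Chac1 at 79.6 and 75.8, against 97.1 and 95.4 in plasmablasts. Among the synthetases Farsb, the beta subunit for phenylalanine, alone stood lower by this rule, at 53.0 and 56.6 in plasma cells and 77.4 and 80.5 in plasmablasts. The 18 cytosolic synthetases summed to 1456.6 and 1481.7 RPKM in plasma cells, and the 7 serine, glycine and one-carbon enzymes to 343.1 and 326.0 RPKM. The plasma cell libraries also held 14.9 and 9.82 RPKM of T cell markers, nearly all of it Cd4 (12.8 and 8.87 RPKM). They held 17 and 14.4 RPKM of 5 myeloid markers, and 52.3 and 29.3 RPKM of 3 erythroid markers (4.02 and 6.08 RPKM with DMSO). Cell handling genes, here 5, summed to 485.1 and 501.5 RPKM. The sums of the main experiment covered 2 myeloid, 1 erythroid and 6 cell handling genes, so they are not like these. The part of these markers in the plasma cell levels was not tested.

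**Figure D5:**
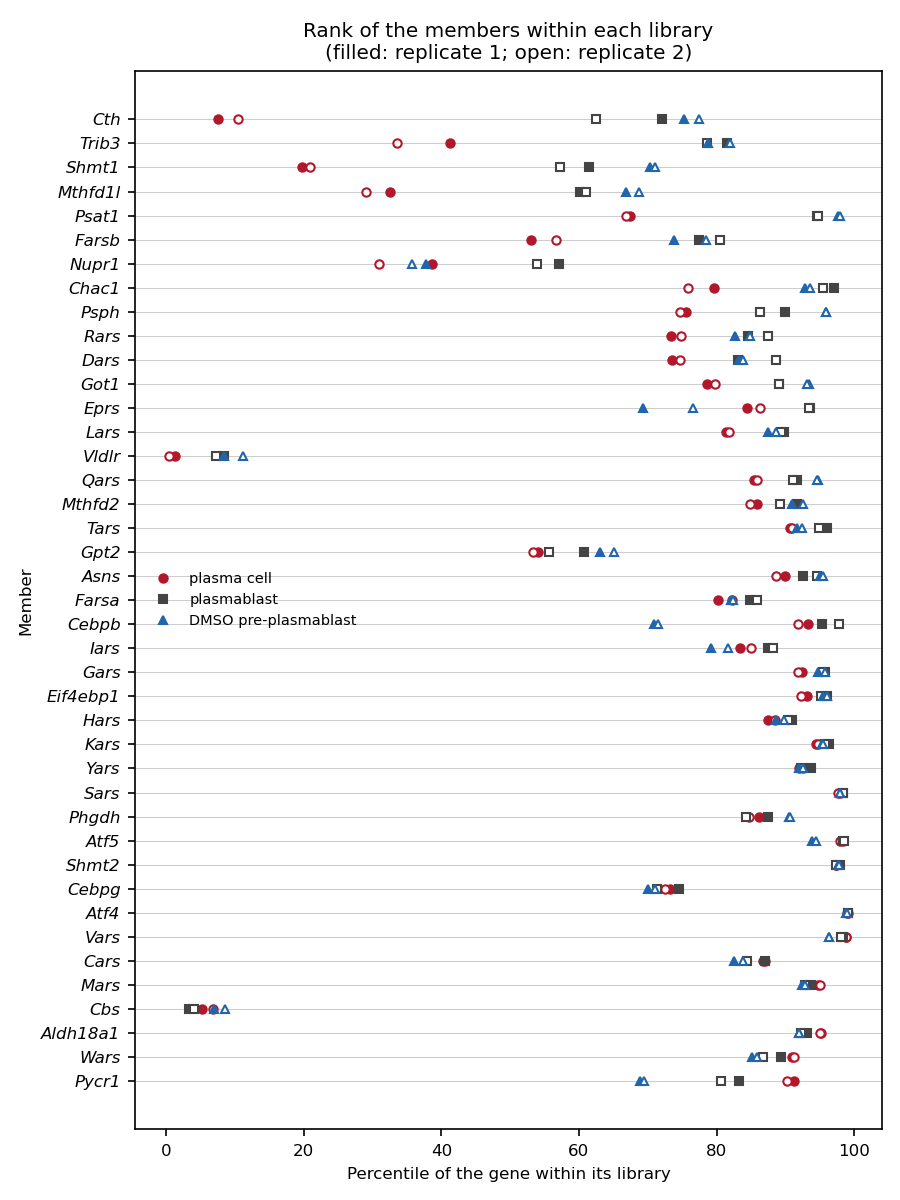
Percentile of each of 41 members within its library among 11165 shared genes, for plasma cells (circles), plasmablasts (squares) and DMSO-treated pre-plasmablasts (triangles), ordered by the gap between plasma cells and plasmablasts. Cth, Trib3, Shmt1 and Mthfd1l lie far to the left in plasma cells, and Atf4, Vars and Sars lie near the right edge in all libraries.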

How the data were processed

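The 14 RNA libraries of a series of 38 samples were analysed, in 7 groups of 2, and the 24 chromatin samples were not used here. The labels describe strand-specific libraries of polyadenylated RNA with 50-nucleotide reads. RPKM values were computed by the authors and deposited as 1 file per library, GC-normalized for plasmablasts, both kinds of pre-plasmablast of the main experiment and activated B cells. The submitters' processing notes name the tools DESeq 1.8.3, TopHat 1.4.1, SICER and HTSeq 0.5.3 and the build mm9, with no role given. Neither the annotation nor the strand setting of the counting is stated in those notes or the labels. Reads shared with paralogs or overlapping genes could not be assessed. Read totals are not in the files, so no counting intervals are given. Entries whose name occurred more than once were left out.

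The test took genes that reached 1 RPKM in 2 or more libraries, on log2(RPKM + 1) with limma 3.58.1 in R 4.3.3 (mean-variance trend, two-sided, Benjamini-Hochberg over all genes of the fit, called below 0.05), in 1 fit of the 8 GC-normalized libraries, which share an estimate of the spread, and 1 fit of the 4 libraries of the inhibitor experiment. The script was tested on simulated data. In each comparison Atf4 and the members of each role with the largest called changes were given by library, and of each list outside the module up to 4 called genes. Some further members were chosen after their values were seen: members that were not called, those whose call depended on a setting, and those described in plasma cells. Some genes of the lists outside the module are not reported here. The members and lists were chosen with earlier results of these data known.

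Replicate numbers follow accession order, which coincides with 2 series of library numbers in the titles of the main experiment. Deviations of same-numbered libraries from their group means correlated over 10473 genes at 0.666 to 0.781 in all 6 pairs of groups, so this series was used as a replicate block in an alternative fit. Other alternatives were a pseudocount of 0.1, no filter, median-of-ratios scaling, no trend, only the groups compared, and each library left out. In the plasma cell files 5 summary names of a read counter shift names against values. They were removed, after which the rank correlation with plasmablasts over 11165 genes was 0.892, against 0.182 as deposited. Names containing the letters NA are damaged in those files, so Nars has no value there. Promoter windows came from a RefSeq table, without coordinates being carried between builds.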

Additional observations from a re-analysis of the deposited data

How the results depend on the processing

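No member changed direction after being called under any alternative. The counts of members called were within 1.5 times the values given, with these exceptions. Median-of-ratios scaling left 1 member lower in pre-plasmablasts than in activated B cells, Mthfd1l. With the replicate block, 9 members were higher and 1 lower in plasmablasts than in pre-plasmablasts, 3 were higher in Blimp1-deficient than in control pre-plasmablasts, and 2 were higher and 11 lower in Blimp1-deficient pre-plasmablasts than in activated B cells. The shares of all genes given above come from fits without the block, so counts with the block have no such share beside them. These counts are not read as results about the members, since calls may have risen among all genes alike. The block ended no call of a member and added 40 over the 6 comparisons. It also brought the counts to 32 higher and 3 lower in pre-plasmablasts and 33 higher and 4 lower in plasmablasts, each against activated B cells, and to 33 lower in Blimp1-deficient than in control pre-plasmablasts. With only the groups compared in the fit, 0 members were higher in plasmablasts than in pre-plasmablasts. With no filter on low values Cbs and Vldlr entered the fit, and 1 member, Cbs, was higher in Blimp1-deficient than in control pre-plasmablasts. With each library left out in turn, 24 to 28 members were higher and 1 to 3 lower in pre-plasmablasts than in activated B cells, and 0 were higher or lower in plasmablasts than in pre-plasmablasts. Likewise 25 to 27 were higher and 2 to 3 lower in plasmablasts than in activated B cells, 0 higher and 25 to 28 lower in Blimp1-deficient than in control pre-plasmablasts, 0 higher and 2 to 4 lower in Blimp1-deficient pre-plasmablasts than in activated B cells, and 1 to 3 higher and 22 to 31 lower with GSK343 than with DMSO. Of the members called, 23 of 29, 0 of 1, 27 of 30, 24 of 28, 2 of 3 and 23 of 32 kept their call in every such fit, in the same order of comparisons. Such a fit leaves 1 library in a group and assumes that it varies as the others do. Groups of 2 libraries and unknown read totals limit what small changes these data can show.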
